A study of Mus musculus with 48 samples.

Results

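The mitochondrially encoded genes were taken as every gene in both count tables whose symbol starts with mt-, which gave 37 of the 55450 listed genes. Of these, 13 encode proteins, 2 encode ribosomal RNAs and 22 encode transfer RNAs, and all 37 were listed for all 48 RNA-seq libraries.

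The study asked how the chromatin-binding proteins HMGN1 and HMGN2 affect the browning of white fat cells, and compared wild-type (WT) cells with cells lacking both proteins (DKO, Hmgn1-/- and Hmgn2-/-) on the C57BL/6 background. Preadipocytes from the inguinal white fat (iWAT) of adult mice were collected at days 0, 3, 6 and 9 of differentiation, and mouse embryonic fibroblasts (MEFs) from mid-gestation embryos at days 0, 4, 8 and 12. Both cell types received insulin, dexamethasone, IBMX, T3 and rosiglitazone, for 4 days (preadipocytes) or 8 days (MEFs), followed by insulin and T3 for 4 days, a protocol that yields brown-like adipocytes. Each of the 16 groups held 3 libraries, which the study calls biological replicates, and WT and DKO cells of a day had the same agents. The number of mice behind each culture was not given in the sources used here.

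The mitochondrial genome is a small circle present in many copies per cell. Its protein genes encode core subunits of the respiratory chain and of the ATP synthase: mt-Nd1 to mt-Nd6 and mt-Nd4l belong to complex I, mt-Cytb to complex III, mt-Co1, mt-Co2 and mt-Co3 to complex IV, and mt-Atp6 and mt-Atp8 to complex V, while complex II is encoded in the nucleus alone. The genes are transcribed as long RNAs from both strands, which are cut at the transfer RNAs that lie between most of the messenger and ribosomal RNAs, and most of the protein genes share a strand. Brown and brown-like adipocytes are known for abundant mitochondria, whose proton gradient they dissipate as heat.

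In the GRCm38 (mm10) annotation, the ribosomal RNA genes mt-Rnr1 (chrM:70-1024) and mt-Rnr2 (chrM:1094-2675) came before the protein genes mt-Nd1 (chrM:2751-3707), mt-Nd2 (chrM:3914-4951), mt-Co1 (chrM:5328-6872), mt-Co2 (chrM:7013-7696), mt-Atp8 (chrM:7766-7969), mt-Atp6 (chrM:7927-8607), mt-Co3 (chrM:8607-9390), mt-Nd3 (chrM:9459-9806), mt-Nd4l (chrM:9877-10173), mt-Nd4 (chrM:10167-11544), mt-Nd5 (chrM:11742-13565), mt-Nd6 (chrM:13552-14070) and mt-Cytb (chrM:14145-15288). All were single-exon genes without introns, and mt-Nd6 was the only protein gene on the minus strand. The reading frames used mitochondrial start codons as well as ATG: mt-Nd1 opened with GTG, mt-Nd2 with ATA, mt-Nd3 with ATT, mt-Nd5 with ATC and the other 9 with ATG. The annotated mt-Co3, mt-Nd4 and mt-Cytb ended 1 base past a whole number of codons.

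Neighbouring genes shared bases, so that some reads could not be given to 1 gene alone. The sequences below, from the GENCODE transcripts of GRCm38, show these stretches in capitals: the 43 bases shared by mt-Atp8 and mt-Atp6, the 7 bases shared by mt-Nd4l and mt-Nd4, and the 14 bases in which the last 60 bases of mt-Nd5 (chrM:13506-13565, plus strand) and of mt-Nd6 (chrM:13552-13611, minus strand) are each other's reverse complement.
mt-Atp8: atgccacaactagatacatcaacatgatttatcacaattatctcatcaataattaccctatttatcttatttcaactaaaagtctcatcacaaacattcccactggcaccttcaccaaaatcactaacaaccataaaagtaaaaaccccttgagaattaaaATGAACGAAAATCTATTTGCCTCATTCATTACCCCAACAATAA
mt-Nd4l: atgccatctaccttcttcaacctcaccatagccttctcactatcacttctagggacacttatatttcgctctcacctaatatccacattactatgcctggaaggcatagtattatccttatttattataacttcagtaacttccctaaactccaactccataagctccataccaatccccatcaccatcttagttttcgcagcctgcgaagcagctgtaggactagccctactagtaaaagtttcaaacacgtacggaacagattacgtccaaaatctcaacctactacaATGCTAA
mt-Nd5: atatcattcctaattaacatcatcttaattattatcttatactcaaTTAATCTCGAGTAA
mt-Nd6: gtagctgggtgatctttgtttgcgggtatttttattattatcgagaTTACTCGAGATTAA

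A second kind of sharing involved the nucleus. A search of all annotated transcripts found 7 nuclear pseudogenes at least 99% identical to part of a mitochondrially encoded gene, all on the minus strand of chromosome 1 between 24611535 and 24616197. They were Gm10925 (a copy of 678 bases of mt-Atp6), Gm29216 (483 bases of mt-Co1), Gm28661 (681 bases of mt-Co2), Gm28437 (783 bases of mt-Co3), Gm28438 (345 bases of mt-Nd3), Gm28439 (876 bases of mt-Nd4) and Gm10222 (294 bases of mt-Nd4l). Over the aligned stretch, 5 of the 7 had no difference at all and the other 2 had 1 each. These 2 differences are in capitals in the 60-base windows below: A1066T between mt-Co1 (chrM:6390-6449) and Gm29216 (chr1:24616129-24616188, minus strand), and T3C between mt-Nd3 (chrM:9459-9518) and Gm28438 (chr1:24613060-24613119, minus strand), with positions counted from 1 at the first base of the mitochondrial gene.
mt-Co1: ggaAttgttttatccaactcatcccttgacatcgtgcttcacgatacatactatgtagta
Gm29216: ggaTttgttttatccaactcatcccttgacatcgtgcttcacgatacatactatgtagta
mt-Nd3: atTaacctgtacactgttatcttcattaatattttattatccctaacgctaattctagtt
Gm28438: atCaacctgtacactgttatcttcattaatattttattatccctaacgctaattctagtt

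Reads from such stretches could not be placed by sequence, and the expected counts divided them between both loci. The share of a pair's counts that went to the nuclear copy had a median over preadipocyte libraries of 72.9% for mt-Nd4l, 64.7% for mt-Co2 and 61.8% for mt-Atp6, and over MEF libraries of 74.0%, 78.0% and 70.7%. In the same order of cell types it was lower for mt-Nd3 (38.0% and 60.7%) and mt-Co3 (31.6% and 25.0%), and small for mt-Co1 (7.4% and 4.77%) and mt-Nd4 (1.07% and 0.35%). Within a cell type this share varied from library to library, from 21.5% to 58.3% for mt-Nd3 in preadipocytes, so that the deposited counts of mt-Nd3, mt-Nd4l, mt-Co2 and mt-Atp6 carried the variation of this split as well as that of the transcripts. In preadipocytes the split also differed between the genotypes. At day 9 it was 51.9% to 57.9% in WT and 61.8% to 70.4% in DKO libraries for mt-Atp6. It was 55.5% to 59.9% and 65.3% to 70.8% for mt-Co2, and 35.1% to 45.1% and 48.4% to 58.1% for mt-Nd3. All DKO libraries also lay above all WT libraries at day 6 for these genes and mt-Co1. The pairs of mt-Nd4l, mt-Co3 and mt-Nd4 overlapped on both days, and that of mt-Co1 at day 9. A larger share on the copy lowers the deposited count. Results are therefore given from the deposited counts and, where it matters, with the counts of the 7 copies added to their mitochondrial genes, an alternative chosen after seeing the data. The genes mt-Nd1, mt-Nd2, mt-Nd5, mt-Nd6, mt-Cytb and mt-Atp8 had no copy at this identity, and less similar copies were left as they were.

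**Figure D1:**
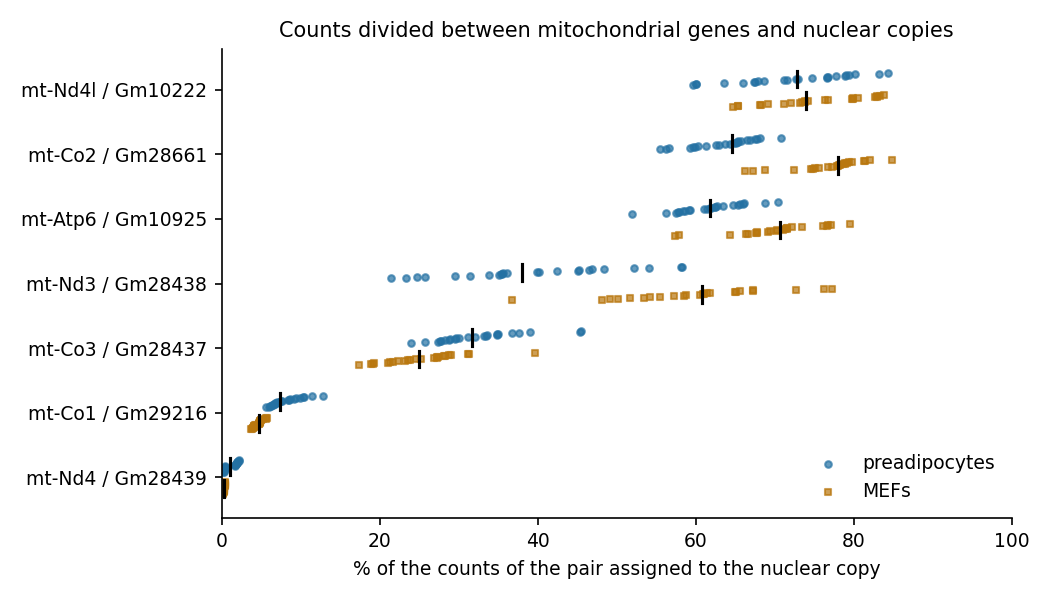
Share of the counts of each mitochondrial gene and nuclear copy pair that was assigned to the nuclear copy, in percent (x axis), for the 7 pairs (y axis). Each point is a library (circles, preadipocytes; squares, MEFs), and black ticks are medians. The lowest points of mt-Nd4l, mt-Co2 and mt-Atp6 in preadipocytes are at 59.7%, 55.5% and 51.9%, and those of mt-Nd3 run from 21.5% to 58.3%.

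The libraries held 19809397 to 36006696 counts in preadipocytes and 18962483 to 33083213 counts in MEFs. Hmgn2 was at 0 to 0.329 counts per 1e6 counts (CPM) in the DKO libraries and at 32.4 to 198 CPM in the WT libraries. The CPM levels of the mitochondrially encoded genes were scaled between the libraries of a cell type, whereas shares used unscaled totals. Hmgn1 was still counted in DKO cells, at 69.6 to 114 CPM against 76.9 to 218 CPM in WT cells, so its gene-wide count did not check a deletion of part of the gene. In 3 MEF groups 1 library stood apart from the other 2: WT day 4 replicate 1, WT day 8 replicate 2 and DKO day 8 replicate 3 had a chi-square per degree of freedom of 77.4 to 144 against both partners, which differed from each other by 2.11 to 15.6. For days 4 and 8 of MEFs, counts of called genes and shares are given with and without them. In DKO MEFs of day 0, the baseline of the DKO MEF time course, every pair of libraries differed, by 98.0 to 154. No library of that group was set apart, since no pair of its libraries was close. The summed level of the 8 adipocyte markers was higher on later days than on day 0 in both cell types. At day 0 it was 169 to 434 CPM in WT and 238 to 879 CPM in DKO preadipocytes. MEFs of day 0 had 941 to 1125 CPM (WT) and 1525 to 2159 CPM (DKO). Under 0.5 CPM at day 0 were Adipoq, Cidec, Cfd and Plin1 in MEFs. In preadipocytes these were Adipoq, Cidec and Cfd in WT and Cidec alone in DKO cells. No adipocyte marker was below that level from the second collection on.

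The 22 transfer RNA genes were barely measured. Of these, 18 were at 0 in all 48 libraries, and the other 4 collected 8 counts in all: 5 for mt-Tl1 and 1 each for mt-Tv, mt-Tm and mt-Tn. A count of 0 allowed a level of up to 3 counts, or 0.0833 to 0.158 CPM of the unscaled total depending on the library. Differences between groups were therefore not detectable at this depth. Of other RNAs that usually lack a poly(A) tail, Rn7sk stood at 0.21 to 2.3 CPM. Rmrp, Rpph1, Terc, Rny1 and Rny3 reached at most 0.64 CPM in any library. The histone genes Hist1h1e, Hist1h3b, Hist1h4d and Hist2h2aa1 reached at most 6.47 CPM. Only the histone genes Hist1h1c and Hist1h2bc were high among those listed. Hist1h1c stood at 76.0 to 192 CPM in preadipocytes and 25.3 to 183 CPM in MEFs, and Hist1h2bc at 55.3 to 117 and 28.7 to 87.0 CPM. The labels give the RNA as polyA RNA whereas the methods name a total RNA kit, and the levels of the transfer RNAs, the ribosomal RNAs and mt-Nd6 relative to the other genes hold for these libraries only.

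The protein genes held a larger share of each library on the later days than on day 0. In WT preadipocytes the 13 genes held 2.04%, 1.81% and 1.9% of all counts at day 0, 2.84%, 2.67% and 3.35% at day 3, 6.93%, 7.04% and 6.48% at day 6, and 6.94%, 7.45% and 6.93% at day 9. The mean at day 6 was 3.55 times that of day 0, and at day 9 it was 3.7 times. In DKO preadipocytes the share was 1.83%, 1.81% and 1.89% at day 0, 3.04%, 3.42% and 3.37% at day 3, 7.86%, 9.01% and 8.87% at day 6, and 7.96%, 8.38% and 8.94% at day 9. Its mean reached 4.66 times the day 0 value at day 6 and 4.58 times at day 9. No library of day 0 overlapped any library of days 3, 6 or 9 in either genotype.

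DKO preadipocytes held the larger share at days 6 and 9. At day 6 the mean was 8.58% ± 0.628 (SD, n = 3) in DKO and 6.81% ± 0.299 in WT cells, a difference of 1.77 percentage points in which all 3 DKO libraries lay above all 3 WT libraries. At day 9 the means were 8.43% ± 0.493 and 7.11% ± 0.299, a difference of 1.32 points, again without overlap. At days 0 and 3 the groups overlapped, with means of 1.84% ± 0.0429 against 1.92% ± 0.118 and of 3.28% ± 0.207 against 2.95% ± 0.35. With 3 libraries against 3, the exact two-sided permutation test cannot go below p = 0.1, which is what it gave at days 6 and 9 (0.267 after Benjamini-Hochberg adjustment over the 8 comparisons). The 95% Wilson intervals of single libraries reached at most 0.0121 points to either side, and cover counting error only, since reads without molecular identifiers are not independent molecules.

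In MEFs the share of the protein genes was also higher on every later day than on day 0. WT MEFs went from 1.8%, 1.6% and 1.64% at day 0 to 4.16%, 4.5% and 4.43% at day 4, 3.77%, 4.37% and 3.78% at day 8, and 4.02%, 4.17% and 4.18% at day 12, which is 2.6, 2.36 and 2.45 times the day 0 mean. DKO MEFs held 1.49%, 2.84% and 1.77% at day 0, 4.09%, 4.12% and 4.33% at day 4, 4.27%, 4.43% and 4.52% at day 8, and 4.9%, 5.46% and 4.86% at day 12. The DKO day 0 replicate 2 was high among its group, at 2.84%. At day 12 the means were 5.07% ± 0.338 in DKO and 4.12% ± 0.0871 in WT MEFs (n = 3 each), a difference of 0.952 points with no overlap (exact permutation p = 0.1). At days 0, 4 and 8 the genotypes overlapped with all libraries. Without the libraries that stand apart, all DKO libraries lay below the WT libraries at day 4, with a difference of -0.285 points. At day 8 they lay above them, with a difference of 0.576 points, and with fewer libraries left in each group.

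The ribosomal RNA genes held far fewer counts. Their summed share in preadipocytes went from a day 0 mean of 0.0508% (WT) and 0.0486% (DKO) to 0.346% and 0.412% at day 6, which is 6.81 and 8.48 times the starting value, and was 0.251% and 0.321% at day 9. In MEFs the day 12 mean was 0.109% in WT and 0.178% in DKO cells, 3.17 and 5.72 times the day 0 mean. At day 3 the mean was 0.0578% in WT and 0.0987% in DKO preadipocytes, and all 3 DKO libraries lay above all 3 WT libraries (exact permutation p = 0.1).

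**Figure D2:**
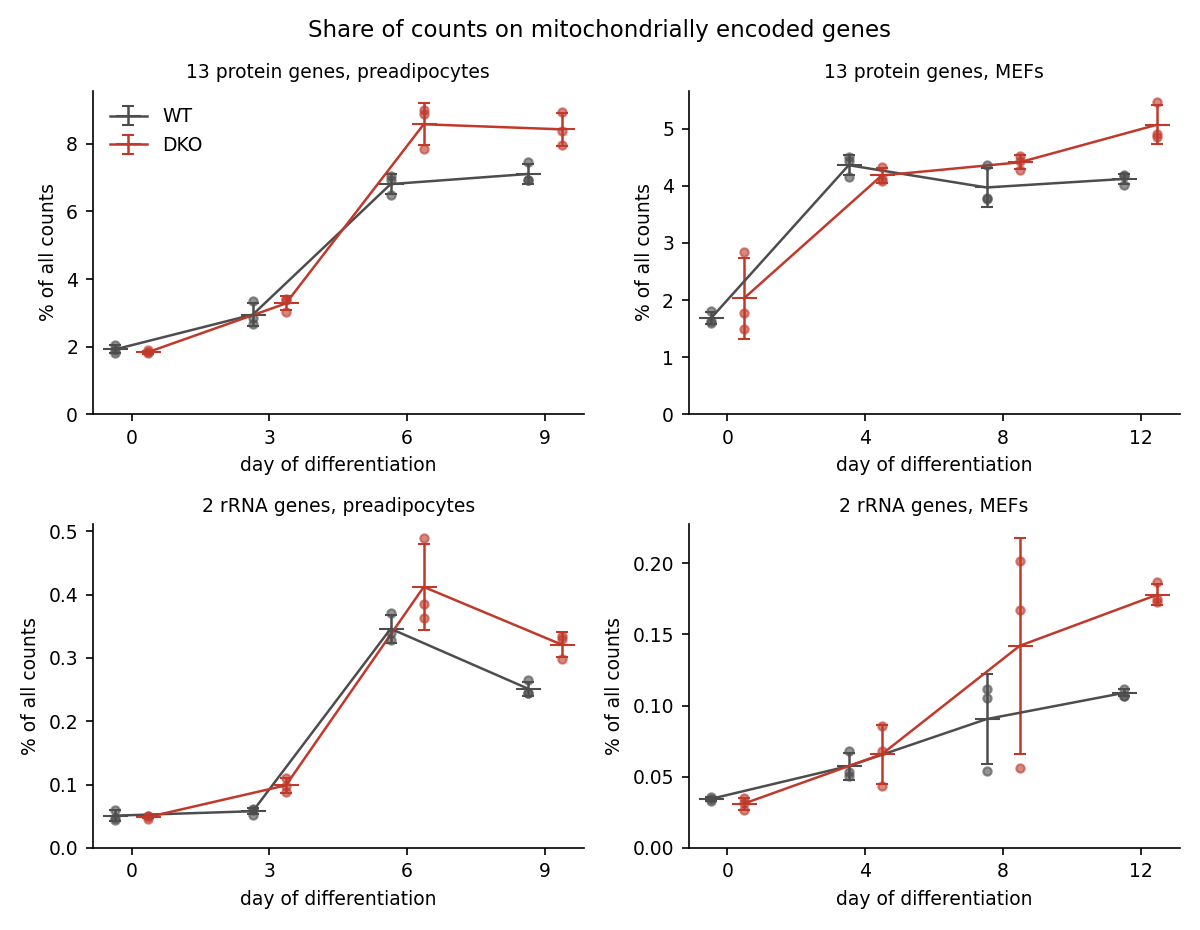
Share of all counts of a library (y axes, percent) on the 13 protein genes (top) and the 2 rRNA genes (bottom) by day of differentiation (x axes), in preadipocytes (left) and MEFs (right). Points are libraries, horizontal ticks and error bars are mean ± SD (n = 3), and points of WT and DKO are offset sideways for display. All DKO points lie above all WT points for the protein genes at days 6 and 9 of preadipocytes and at day 12 of MEFs.

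Compared per kilobase of gene, with the counts of the copies added, the 13 genes differed widely in level. In WT preadipocytes at day 0 the complex IV genes led, with mt-Co1 at 4620 ± 177, mt-Co2 at 3832 ± 331 and mt-Co3 at 3615 ± 501 CPM per kb (SD, n = 3), followed by mt-Atp6 at 2760. The values of mt-Co2 and mt-Co3 overlapped, as did those of mt-Nd1 (1772) and mt-Cytb (1748), and mt-Atp8 came next at 1527. The complex I genes mt-Nd4 (971), mt-Nd5 (819), mt-Nd2 (792), mt-Nd4l (755) and mt-Nd3 (493) were lower, with overlap between mt-Nd5, mt-Nd2 and mt-Nd4l as neighbours in this order. The gene of the minus strand, mt-Nd6, was last at 30.5 ± 13.1. The ribosomal RNA genes stood at 201 (mt-Rnr2) and 164 (mt-Rnr1) CPM per kb, below every protein gene but mt-Nd6. WT MEFs at day 0 gave the same order of the 13 genes, from mt-Co1 at 4581 ± 329 to mt-Nd6 at 22.4 ± 0.483.

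Ranked by count among all genes, mt-Co1 moved from rank 7 in WT preadipocytes at day 0 to rank 2 at days 6 and 9. In WT MEFs it moved from rank 8 at day 0 to rank 1 at days 4, 8 and 12. The sole mitochondrial subunit of complex III, mt-Cytb, moved from rank 36 to rank 4 in WT preadipocytes at day 6, and mt-Nd6 from rank 7597 to rank 1354.

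The time course asked which genes differed between day 0 and each later day. Each later day was set against the same day 0 libraries of its genotype, so that the contrasts of a genotype are not independent of each other. By the stated schedule, day 3 of preadipocytes and day 4 of MEFs fell in the first medium, and day 6 of preadipocytes in insulin and T3. The stated days of treatment do not reach day 9. Time, agents and differentiation therefore cannot be told apart in these contrasts. A gene was called when its Benjamini-Hochberg adjusted p in edgeR's quasi-likelihood test over all genes was under 0.05 and its fold change at least 1.5. In WT preadipocytes 8 of the 13 protein genes had risen by day 3, when 24.7% of all genes tested were called in either direction and 11.1% were called higher. All 13 had risen at day 6 (53.1% of all genes called, 25.6% higher) and at day 9 (52.7% and 25.8%). In DKO preadipocytes all 13 had risen at day 3 (27.0% of all genes called, 13% higher), day 6 (57.4% and 27.3%) and day 9 (55.6% and 26.6%). No protein gene was called lower. The median log2 fold change of the 13 genes was 0.61, 2.10 and 1.95 at days 3, 6 and 9 in WT and 0.90, 2.46 and 2.31 in DKO cells, where the median of all genes tested lay between -0.03 and 0.04.

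In WT preadipocytes the complex I subunit gene mt-Nd2 stood at 880, 785 and 802 CPM at day 0, 1248, 1210 and 1521 at day 3, 4708, 5326 and 4489 at day 6, and 4124, 4518 and 4187 at day 9. All libraries of day 6 were above all of day 0, and the log2 fold change was 2.58 ± 0.12 (SE, adjusted p = 5.16e-09), or 5.99-fold. In DKO preadipocytes mt-Nd2 went from 830, 773 and 821 CPM to 6210, 7924 and 6614 at day 6, a log2 fold change of 3.09 ± 0.12 (adjusted p = 8.25e-09), or 8.51-fold. The complex IV gene mt-Co2, as deposited, rose in WT cells from 987, 882 and 861 CPM to 5109, 6203 and 5738 at day 9, with a log2 fold change of 2.64 ± 0.12 (adjusted p = 4.86e-09). With its copy added, mt-Co2 went from 3832 ± 331 to 19441 ± 873 CPM per kb. That is a smaller log2 fold change of 2.34. The third gene named by the rule for day 6 of WT cells, mt-Nd4, another complex I subunit, rose by 1.93 ± 0.09 on the log2 scale (adjusted p = 9.6e-09).

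The smallest p-values at day 3 of WT preadipocytes belonged to mt-Nd4, mt-Cytb and mt-Nd2. At day 3 of WT preadipocytes mt-Cytb was at 3537, 3299 and 4237 CPM against 2065, 1914 and 2020 at day 0, with no overlap and a log2 fold change of 0.89 ± 0.11 (adjusted p = 7.04e-05). The gene mt-Nd4 gave 0.78 ± 0.09 (adjusted p = 5.95e-05) and mt-Nd2 0.69 ± 0.11 (adjusted p = 0.000436). Of the 5 protein genes not called on that day, mt-Nd6 (0.07 ± 0.35) and mt-Co3 (0.35 ± 0.13) overlapped day 0, while mt-Nd1 (0.42 ± 0.12), mt-Co1 (0.53 ± 0.11) and mt-Co2 (0.56 ± 0.11) passed the adjusted p but not the fold. The count of 8 depended on single libraries, and was 4 without WT day 3 replicate 3 and 5 without WT day 0 replicate 2.

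Among the protein genes, mt-Nd6, the lowest of the 13, had the highest log2 fold change at day 6 in both genotypes. It stood at 22.2, 8.75 and 16.6 CPM in WT preadipocytes at day 0 and at 124, 129 and 144 CPM at day 6, 8.49-fold more or 3.08 ± 0.36 on the log2 scale. In DKO preadipocytes it went from 9.53, 12.7 and 12.2 to 212, 175 and 175 CPM, 16.3-fold more or 4.03 ± 0.26 on the log2 scale. The adjusted p was 2.94e-05 in WT and 2.89e-07 in DKO cells. These values for mt-Nd6 were singled out after they had been seen. Against mt-Nd5, its neighbour on the opposite strand, mt-Nd6 had 1.06 ± 0.456 counts per 100 of mt-Nd5 at day 0 of WT preadipocytes, and 2.98 ± 0.309 at day 6. In DKO cells this ratio was 0.708 ± 0.15 and 2.96 ± 0.864, and in both genotypes the 3 libraries of day 6 lay above the 3 of day 0. In WT MEFs it was 0.948 ± 0.0351, 1.07 ± 0.142, 1.41 ± 0.229 and 0.85 ± 0.0763 at days 0, 4, 8 and 12, and in DKO MEFs 0.829 ± 0.102, 1.04 ± 0.111, 1.28 ± 0.44 and 1.06 ± 0.223. The 3 WT libraries of day 8, with the library that stands apart at 1.15, lay above the 3 of day 0. So did the 3 DKO libraries of days 4 and 12, where the lowest of day 12 was 0.896 beside 0.892 as the highest of day 0. The other MEF days overlapped day 0. Whether the counting used the strand of the reads was not stated in the sources used here, and without it reads of mt-Nd6 and of antisense transcripts of its region cannot be told apart.

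The ribosomal RNAs of the mitochondrial ribosome rose by day 6 as well. The small subunit RNA mt-Rnr1 went from 184, 139 and 147 CPM to 1441, 1769 and 1554 CPM in WT preadipocytes, a log2 fold change of 3.36 ± 0.14 (adjusted p = 3.43e-09) or 10.3-fold. In DKO preadipocytes it went from 169, 164 and 153 to 1734, 2586 and 2014 CPM, or 13-fold. The large subunit RNA mt-Rnr2 rose 6.12-fold in WT and 8.27-fold in DKO cells. At day 3 mt-Rnr1 and mt-Rnr2 had log2 fold changes of 0.24 ± 0.13 and 0.11 ± 0.12 against day 0 in WT cells (adjusted p = 0.155 and 0.461) and of 1.16 ± 0.14 and 0.93 ± 0.15 in DKO cells (adjusted p = 0.000138 and 0.000594), where both were called. The difference between the genotypes on that day is given with the other genotype comparisons.

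In MEFs all 13 protein genes had risen at days 4, 8 and 12 in WT cells, when 33.2%, 29.6% and 26.3% of all genes were called (14.8%, 12.7% and 12.5% higher). In DKO MEFs 12, 13 and 13 had risen, against 26.1%, 27.1% and 25.6% of all genes (11.4%, 12.5% and 15.6% higher). The exception was mt-Nd4l at day 4, with a log2 fold change of 0.42 ± 0.26 (adjusted p = 0.24). With its nuclear copy added this was 1.01 ± 0.20 (adjusted p = 0.00264), and all 13 were called. The medians of the 13 genes were 1.38, 1.37 and 1.54 in WT and 0.97, 1.48 and 1.86 in DKO MEFs. Without the libraries that stand apart the counts were 13, 13 and 13 in WT and 12, 12 and 13 in DKO MEFs.

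The complex III gene mt-Cytb was among the 3 genes named in each MEF contrast. In WT MEFs it went from 1829, 1635 and 1779 CPM at day 0 to 5471, 4827 and 4323 at day 4, 5287, 5292 and 5290 at day 8, and 6077, 5901 and 6079 at day 12. The day 4 change was 1.48 ± 0.08 on the log2 scale (adjusted p = 1.92e-07), and the day 12 change was 1.71 ± 0.08 (adjusted p = 1.53e-07). In DKO MEFs mt-Cytb was at 1792, 2962 and 1965 CPM at day 0 and at 7761, 8128 and 7701 CPM at day 12, with a change of 1.84 ± 0.19 (adjusted p = 7.28e-05). At day 12 of WT MEFs mt-Nd2 rose by 2.18 ± 0.10 on the log2 scale (adjusted p = 1.06e-07) and mt-Nd4 by 1.53 ± 0.08. In DKO MEFs at day 12 mt-Co3 rose by 1.66 ± 0.17 and mt-Atp8, the smallest of the protein genes, by 2.05 ± 0.21. The log2 fold change of mt-Nd6 at day 12 was 1.15 ± 0.11 in WT and 1.86 ± 0.32 in DKO MEFs, beside medians of the 13 genes of 1.54 and 1.86.

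**Figure D3:**
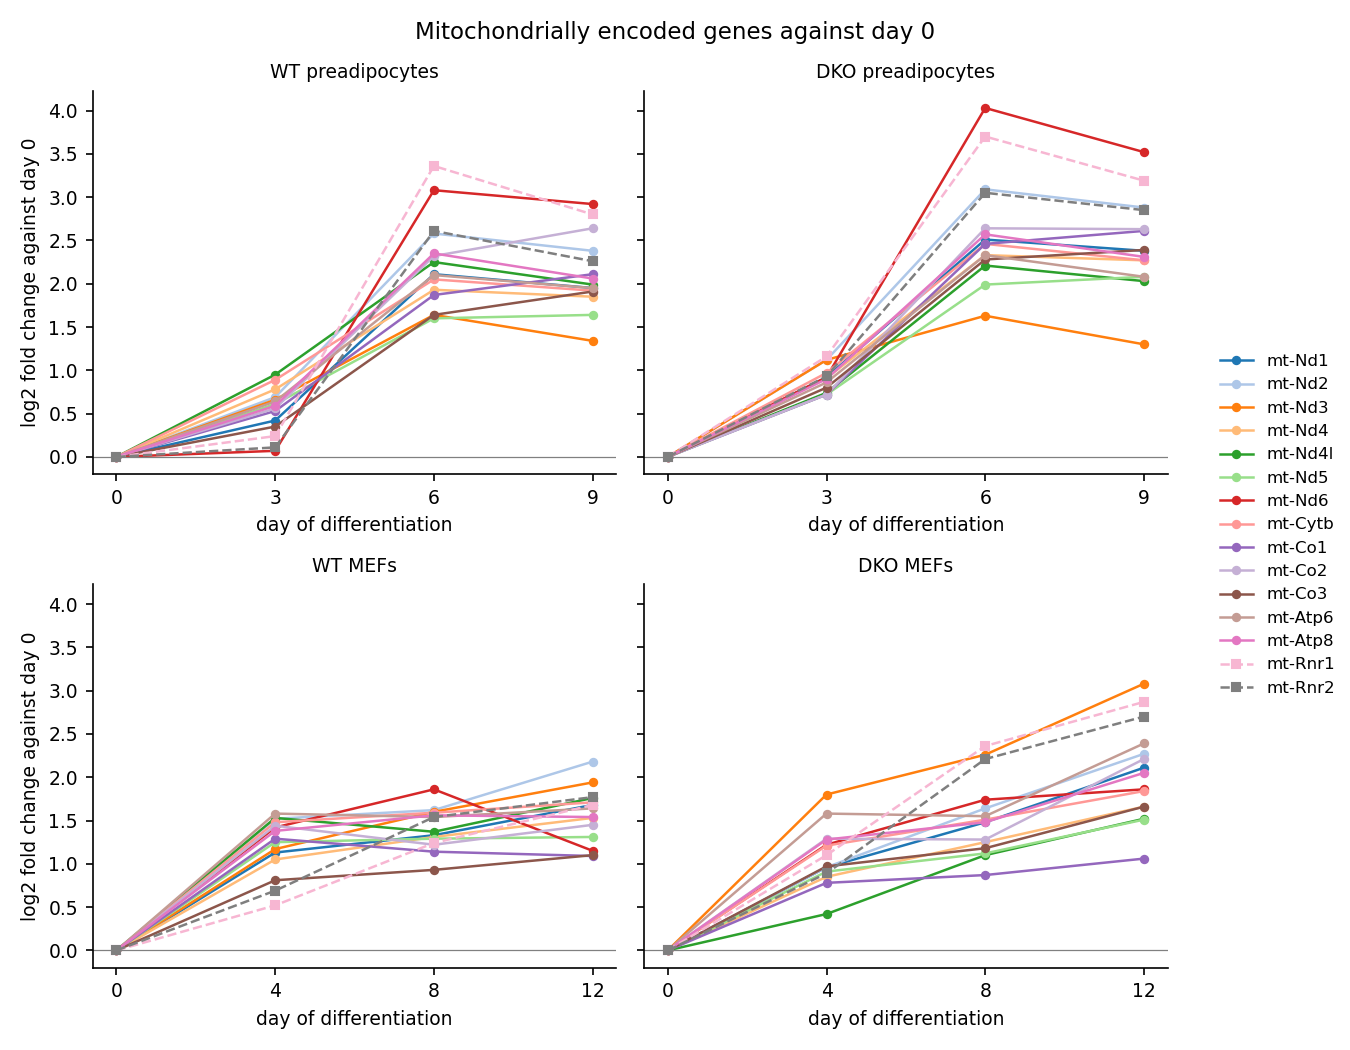
Log2 fold change against day 0 (y axes) of the 13 protein genes (solid lines, circles) and 2 rRNA genes (dashed lines, squares) by day of differentiation (x axes), from the deposited counts. In preadipocytes mt-Nd6 and mt-Rnr1 lie highest at day 6, at 3.08 and 3.36 in WT and 4.03 and 3.70 in DKO cells, and the median of the 13 protein genes in WT MEFs is 1.38, 1.37 and 1.54 at days 4, 8 and 12.

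The comparison of the genotypes asked which genes differed between DKO and WT cells of a day. At day 6 of preadipocytes none of the 13 protein genes was called, against 11.6% of all genes, since none reached 1.5-fold. By the adjusted p alone, 6 of 13 were higher in DKO cells, beside 21.6% of all genes in either direction: mt-Nd2, mt-Nd4, mt-Nd5, mt-Nd6, mt-Cytb and mt-Co1. The median log2 fold change was 0.40, against -0.01 over all genes, and was 0.47 for the complex I genes, 0.48 for mt-Cytb, 0.40 for complex IV and 0.04 for complex V. All 3 DKO libraries lay above all 3 WT libraries for 8 of the 13 genes, which held for 24.7% of all genes.

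The gene with the smallest p was mt-Nd6, at 124, 129 and 144 CPM in WT and 212, 175 and 175 CPM in DKO libraries of day 6. The groups did not overlap, and the log2 fold change was 0.47 ± 0.11 (adjusted p = 0.0205). The other 5 genes were named after their values were seen. The catalytic complex IV subunit mt-Co1 stood at 23546, 25188 and 22537 CPM in WT and 30934, 37173 and 38399 CPM in DKO libraries. Every DKO library was above every WT library, and the log2 fold change was 0.54 ± 0.14 (adjusted p = 0.0302), or 1.46-fold. Under quantile normalization with limma-voom its direction turned, to -0.11 (adjusted p = 0.512). The gene mt-Nd2 was at 4708, 5326 and 4489 CPM in WT and 6210, 7924 and 6614 CPM in DKO libraries, a change of 0.48 ± 0.13 (adjusted p = 0.0363). The changes of mt-Nd5 (0.52 ± 0.14), mt-Nd4 (0.49 ± 0.14) and mt-Cytb (0.48 ± 0.13) were of the same size, with adjusted p of 0.0319, 0.0368 and 0.0343.

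For the genes whose counts were divided with a nuclear copy, adding the copies raised the values of day 6. The change of mt-Co2 was 0.24 ± 0.12 as deposited and 0.45 ± 0.13 (adjusted p = 0.0431) with its copy, and that of mt-Nd4l was 0.15 ± 0.11 and 0.42 ± 0.12 (adjusted p = 0.0353). With the copies, mt-Co2 stood at 10611, 11603 and 10111 CPM in WT and 13469, 16794 and 15054 CPM in DKO libraries, which did not overlap. The count of genes past the adjusted p was then 8 of 13, and still none reached 1.5-fold. The genes mt-Atp6 (0.25 ± 0.16 with its copy), mt-Atp8 (0.07 ± 0.14), mt-Nd3 (0.16 ± 0.17 with its copy) and mt-Nd1 (0.28 ± 0.17) overlapped between the genotypes. In all 4, DKO replicate 2 was the highest library of the day, as in mt-Nd1 with 11378 CPM beside 7329 and 8189 CPM.

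The calls of day 6 depended on single libraries. With either replicate 1 or replicate 3 of WT left out, or replicate 3 of DKO, 0 protein genes passed the adjusted p. Omitting DKO replicate 2 left 2 genes and omitting WT replicate 2 left 4, whereas omitting DKO replicate 1 gave 7, of which 3 also reached 1.5-fold. No share over all genes is given for these fits, so the counts cannot be set against the other genes.

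At day 9 the DKO cells were higher in 10 of 13 genes, with a median log2 fold change of 0.22. None was called (1.24% of all genes), 2 of 13 passed the adjusted p (2.11% of all genes), and 6 of 13 did not overlap with DKO above WT (22.2% of all genes). With the copies added, the last count was 9. The gene with the smallest p was mt-Nd5, at 4634, 4678 and 4682 CPM in WT and 6444, 6816 and 7657 CPM in DKO libraries. The WT libraries lay close together, all DKO libraries were above them, and the log2 fold change was 0.55 ± 0.09 (adjusted p = 0.0427). Its neighbour in complex I, mt-Nd4, changed by 0.49 ± 0.09 (adjusted p = 0.0457). Leaving out any library but DKO replicate 2 left no protein gene past the adjusted p, and leaving out DKO replicate 2 gave 6. For these fits, too, no share over all genes is given.

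At days 0 and 3 of preadipocytes no protein gene was called (0.218% and 0.337% of all genes) or passed the adjusted p (0.218% and 0.351%). The medians were -0.06 and 0.19, and 0 and 3 genes had an unadjusted p under 0.05. The DKO libraries lay above all WT libraries for 1 gene at day 0 (7.38% of all genes) and for 4 genes at day 3 (10.6%). The smallest p belonged to mt-Atp6 at day 0 (-0.23 ± 0.11, adjusted p = 0.674) and to mt-Nd3 at day 3 (0.38 ± 0.11, adjusted p = 0.239).

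In MEFs the genotypes differed at day 12. All 13 genes had a log2 fold change above 0, from 0.21 to 0.71, with a median of 0.42 against 0.00 over all genes. The count called was 1 (7.98% of all genes), 8 of 13 passed the adjusted p (33.0% of all genes), and 12 of 13 had all DKO above all WT libraries (26.5% of all genes). The called gene was mt-Nd6, at 26.8, 25.5 and 29.3 CPM in WT and 37.2, 56.8 and 41.5 CPM in DKO MEFs, with a log2 fold change of 0.71 ± 0.17 (adjusted p = 0.0235). It lost the call when DKO replicate 2 or either of WT replicates 1 and 2 was omitted, when no gene was called, and when all days were fitted at once no protein gene passed the adjusted p.

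The 7 other genes past the adjusted p at day 12 were named after their values were seen. The gene mt-Nd2 stood at 2807, 2843 and 2925 CPM in WT and 4013, 4257 and 3976 CPM in DKO MEFs. The gap between the groups was wider than the spread within either, and the log2 fold change was 0.49 ± 0.05 (adjusted p = 6.88e-07). Values were 0.47 ± 0.05 for mt-Nd1 (adjusted p = 4.28e-06), 0.39 ± 0.07 for mt-Co3, 0.38 ± 0.06 for mt-Nd5, 0.36 ± 0.05 for mt-Cytb, 0.31 ± 0.05 for mt-Nd4 and 0.21 ± 0.05 for mt-Co1 (adjusted p = 0.00582). Under quantile normalization with limma-voom, which the study's reporting summary names, the direction of mt-Co1 turned, to -0.41 with an adjusted p of 2.63e-07. With the copies added, every protein gene but mt-Atp8 passed the adjusted p, and mt-Nd3 was called as well: at 569, 579 and 575 CPM in WT and 836, 969 and 833 CPM in DKO MEFs, its change was 0.59 ± 0.05 (adjusted p = 1.02e-06). As deposited, the change of mt-Nd3 was 0.68 ± 0.27 with an adjusted p of 0.14.

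At day 8 of MEFs the libraries that stand apart mattered. With all libraries no protein gene was called (0.0595% of all genes) or passed the adjusted p, and mt-Cytb had the smallest p, at 5287, 5292 and 5290 CPM in WT and 6648, 6729 and 5683 CPM in DKO MEFs (0.24 ± 0.09, adjusted p = 0.549). Without WT replicate 2 and DKO replicate 3, leaving 2 libraries a group, 4 genes passed the adjusted p (11.2% of all genes) and 1 was called (4.0% of all genes): mt-Nd2, at 2004 and 1992 CPM in WT and 3199 and 2959 CPM in DKO MEFs (0.61 ± 0.07, adjusted p = 0.0025). The other 3 were mt-Nd1 (0.39 ± 0.08), mt-Cytb (0.32 ± 0.06) and mt-Nd4 (0.28 ± 0.06). At days 0 and 4 no protein gene was called (0.102% and 0.0905% of all genes), none passed the adjusted p, and 1 and 0 had an unadjusted p under 0.05. The smallest p belonged to mt-Nd4l on both days, at 0.60 ± 0.20 on day 0 (adjusted p = 0.524). On day 4 it was -0.52 ± 0.31 (adjusted p = 0.827) as deposited, 0.09 with its copy added and -0.32 ± 0.33 as deposited without WT replicate 1, when again no protein gene was called. All 3 DKO libraries were above all WT libraries for 1 gene at day 0 (8.88% of all genes), 0 at day 4 (5.57%) and 4 at day 8 (8.24%).

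**Figure D4:**
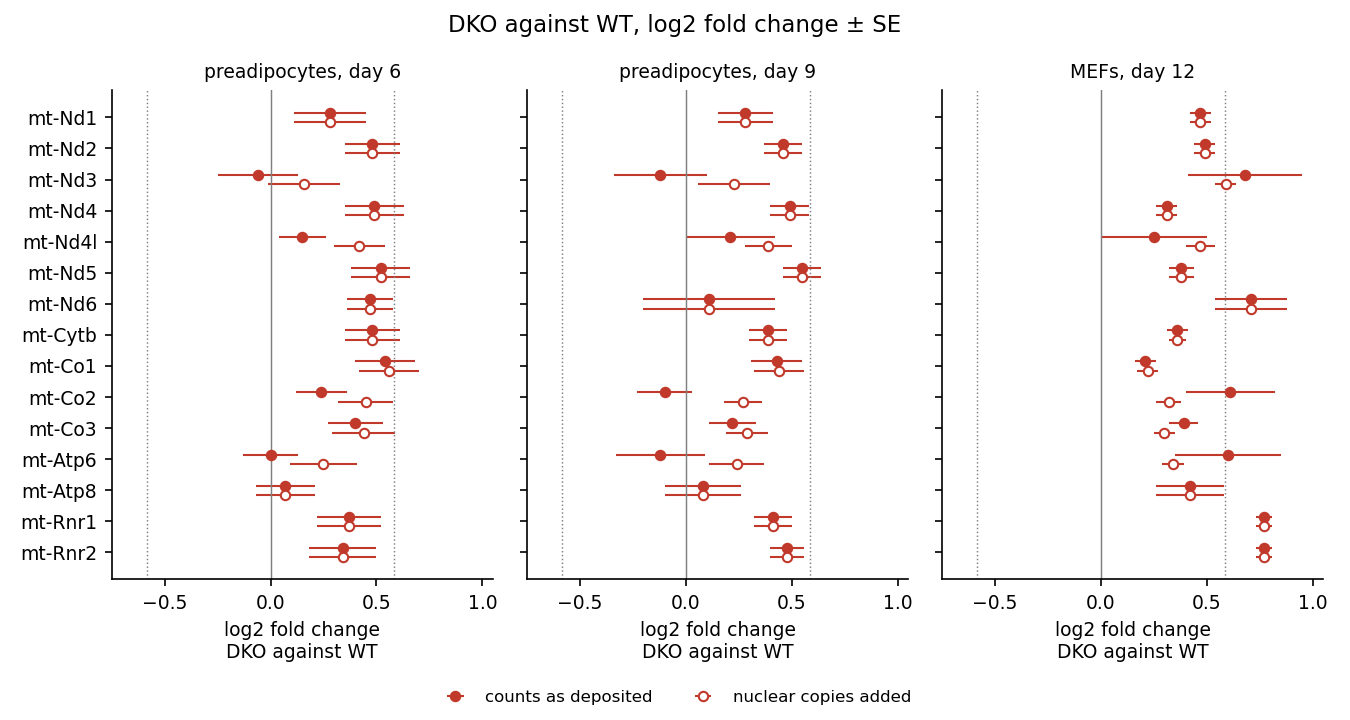
Log2 fold change of DKO against WT (x axes, ± SE) for the 13 protein and 2 rRNA genes (y axis) at days 6 and 9 of preadipocytes and day 12 of MEFs. Filled points are from the deposited counts, open points have the nuclear copies added, the solid line is no change and dotted lines are 1.5-fold. At day 12 of MEFs all points lie above 0, and adding the copies narrowed the error of mt-Nd3 from 0.27 to 0.05.

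Of the ribosomal RNAs, both were called between the genotypes at day 12 of MEFs: mt-Rnr1 stood at 520, 499 and 487 CPM in WT and 847, 843 and 917 CPM in DKO cells, and mt-Rnr2 at 702, 666 and 675 against 1155, 1154 and 1237 CPM. Neither overlapped, and both differed by 0.77 ± 0.04 on the log2 scale, with an adjusted p of 5.99e-09 for mt-Rnr1 and of 4.38e-09 for mt-Rnr2. With all days in 1 fit both calls were lost, at adjusted p = 0.301 and 0.235. At day 3 of preadipocytes mt-Rnr1 was at 156, 200 and 197 CPM in WT and 313, 400 and 347 CPM in DKO cells, also without overlap, and its change of 0.94 ± 0.14 did not pass the test (adjusted p = 0.0594), nor did that of mt-Rnr2 (0.70 ± 0.10, adjusted p = 0.0569). At day 6 neither passed the test, with 0.37 ± 0.15 for mt-Rnr1 (adjusted p = 0.115) and 0.34 ± 0.16 for mt-Rnr2 (adjusted p = 0.16). At day 9 mt-Rnr2 was at 1485, 1614 and 1473 CPM in WT and 2200, 2077 and 2241 CPM in DKO cells, a change of 0.48 ± 0.08 (adjusted p = 0.0427) that was under 1.5-fold. Its adjusted p was 0.0857 with the replicate block, and reached 0.187 when WT replicate 2 was omitted. At day 8 of MEFs mt-Rnr1 was at 442, 203 and 417 CPM in WT and 914, 726 and 220 CPM in DKO cells. The low library of each group was the one that stands apart, and without both the change was 0.92 ± 0.11 (adjusted p = 0.00483).

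Whether the difference between the genotypes itself changed between days was tested by the interaction of genotype and day. No protein gene passed in either cell type, where 2.08% of all genes did in preadipocytes and 0.0177% in MEFs. In preadipocytes 6 of the 13 had an unadjusted p under 0.05, beside 3093 of 16877 genes tested. The smallest adjusted p was 0.0731 (mt-Co1). DESeq2 gave 6 genes past the adjusted p (mt-Co1, mt-Co3, mt-Cytb, mt-Nd2, mt-Nd4 and mt-Nd5), for which no share over all genes is given. In MEFs the smallest adjusted p was 0.549, and neither tool gave a gene. The presence of calls at some days and not at others was therefore not shown by edgeR to be a difference between days.

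Most subunits of the respiratory chain and of the ATP synthase are encoded in the nucleus, and 81 such genes were listed. These include 4 genes of complex II, which has no mitochondrially encoded subunit. At day 6 of preadipocytes 16 of the 79 tested were called higher in DKO cells and 0 lower, 68 passed the adjusted p (11.6% and 21.6% of all genes, in either direction), and their median log2 fold change was 0.49, beside 0.40 for the 13 mitochondrial genes. The calls fell in complex I (7 of 36), II (2 of 4), III (3 of 9), IV (3 of 14) and V (1 of 16). Examples were Ndufs4 of complex I (0.62 ± 0.10, adjusted p = 0.0062), Sdha of complex II (0.70 ± 0.12), Uqcrc2 of complex III (0.61 ± 0.10) and Atp5b, the catalytic subunit of the ATP synthase (0.62 ± 0.13). The largest of the named changes was in Cox7a1, a tissue-specific subunit of complex IV and a marker of brown fat (1.2 ± 0.17, adjusted p = 0.00548). At day 9 none of 80 was called (1.24% of all genes), with a median of 0.41. At day 12 of MEFs 7 of 79 were called higher (7.98% of all genes were called) and 78 passed the adjusted p (33.0% of all genes), with a median of 0.41.

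Genes that copy, transcribe and process the mitochondrial genome were listed as well. At day 6 of preadipocytes 0 of 12 genes of mitochondrial DNA replication and packaging were called (median log2 fold change 0.18), as were 1 of 10 of mitochondrial transcription (0.42), 2 of 24 of RNA processing (0.34) and 2 of 9 nuclear regulators of mitochondrial biogenesis (0.14), all of them higher in DKO cells, beside 11.6% of all genes called in either direction. The called genes were Mterf2, of the mitochondrial transcription termination factor family (0.98 ± 0.18), Hsd17b10, a subunit of mitochondrial ribonuclease P (0.70 ± 0.11), Lrpprc, which stabilises mitochondrial messenger RNAs (0.59 ± 0.13), and the transcriptional regulators Ppargc1a (0.79 ± 0.13) and Esrrg (1.67 ± 0.32). At day 12 of MEFs the counts called were 0, 0, 0 and 1, beside 7.98% of all genes, the last being Ppargc1b (0.86 ± 0.12, adjusted p = 6.3e-05). By the adjusted p alone, 2 of 12, 4 of 10, 15 of 24 and 4 of 8 passed on that day, beside 33.0% of all genes. The medians were 0.12, 0.26, 0.25 and 0.02. At day 6 of preadipocytes 2, 5, 14 and 4 genes passed the adjusted p, beside 21.6% of all genes.

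The balance between both genomes was followed as the counts on the 13 genes and their copies per count on the nuclear subunits, complex II included. In preadipocytes this ratio on day 0 was 4.06 ± 0.0851 in WT and 4.15 ± 0.0627 in DKO cells, with 5.69 ± 0.659 and 5.12 ± 0.186 at day 3, 4.99 ± 0.344 and 4.70 ± 0.158 at day 6, and 4.95 ± 0.2 and 4.8 ± 0.524 at day 9. The genotypes overlapped on each of these days. In MEFs its day 0 value was 4.15 ± 0.243 in WT and 5.15 ± 1.51 in DKO cells, with 8.29 ± 1.1 and 6.94 ± 0.678 at day 4. At day 4 the WT library that stands apart was the lowest of its group, at 7.09 beside 9.24 and 8.55. At day 8 the libraries that stand apart were the highest of their groups, at 8.86 each, and the other libraries lay between 5.04 and 5.95. At day 12 it was 5.21, 5.19 and 5.28 in WT and 4.84, 5.04 and 4.8 in DKO MEFs, so that all 3 DKO libraries were below all 3 WT libraries, a difference that was not tested.

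**Figure D5:**
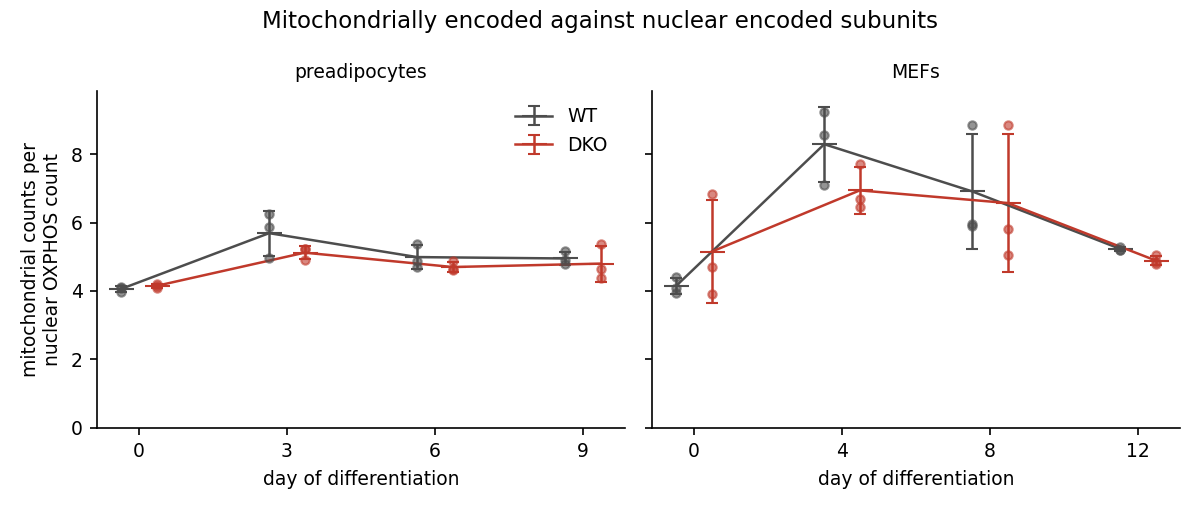
Counts on the 13 mitochondrially encoded protein genes and their copies per count on the 81 nuclear encoded subunits (y axis) by day of differentiation (x axes), in preadipocytes (left) and MEFs (right). Points are libraries, ticks and error bars are mean ± SD (n = 3). The means are highest at day 3 of preadipocytes and day 4 of MEFs, and at day 12 of MEFs the WT points lie between 5.19 and 5.28, above the DKO points.

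Markers of the cells present moved in the same comparisons. At day 6 of preadipocytes the 8 adipocyte markers summed to 21550 to 26390 CPM in WT and 29085 to 36124 CPM in DKO libraries, the 7 markers of brown-like adipocytes to 220 to 329 against 651 to 822 CPM, the 8 of preadipocytes and fibroblasts to 9439 to 11267 against 2883 to 4488 CPM, and the 8 of leukocytes to 4676 to 7959 against 1756 to 3632 CPM. Of these lists, with 8, 7, 8 and 5 genes tested, 1, 6, 1 and 0 genes were called higher and 0, 0, 4 and 1 lower. Over all genes, 11.6% were called in either direction. At day 9 the adipocyte sums were 27125 to 28515 against 34818 to 42271 CPM, and the leukocyte sums 2368 to 5101 against 1149 to 2322 CPM. The sums of brown-like adipocytes were 360 to 419 against 673 to 1015 CPM. Of the brown-like markers 1 of 7 was called higher at day 9. Called in either direction were 0 of 8 adipocyte, 0 of 8 fibroblast and 0 of 5 tested leukocyte markers, beside 1.24% of all genes. At day 12 of MEFs the adipocyte sums were 18059 to 18545 in WT and 27633 to 29501 CPM in DKO cells, those of brown-like adipocytes 158 to 168 and 352 to 362, of fibroblasts 14773 to 15342 and 8719 to 9450, and of leukocytes 3771 to 3819 and 2349 to 2713. Called higher and lower on that day were 7 and 0 of 8 adipocyte markers and 4 and 1 of 7 markers of brown-like adipocytes. The counts were 0 and 3 of 8 for fibroblasts and 0 and 1 of 5 tested for leukocytes. They were 0 and 2 of 4 tested for endothelial cells and 2 and 0 of 3 tested for epithelial cells. Over all genes, 7.98% were called in either direction on that day. The endothelial sums were 15.3 to 17.4 CPM in WT and 9.16 to 13 CPM in DKO MEFs, and the epithelial sums 2.6 to 3.52 and 3.76 to 5.95 CPM, with Epcam under 0.5 CPM in both. The lymphocyte markers Cd3e and Cd79a were under 0.5 CPM throughout. The part of these shifts in the values of the mitochondrially encoded genes was not tested, and in such bulk samples fewer cells of a type and less RNA per cell cannot be told apart.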

How the data were processed

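RNA-seq of preadipocytes and MEFs was analysed in 48 libraries, 3 in each of 16 groups. The authors deposited expected counts per gene in 1 table per cell type, made with Cutadapt 1.18, STAR 2.7.0f (mm10) and RSEM 1.3.0, which divides reads that match several loci between them. Of the deposited values 6.57% were not whole, and all were rounded to whole numbers for the tests of single genes. Levels, shares and the overlap of groups used the unrounded values. Counts were scaled by TMM and tested across all genes that passed edgeR's filter on low counts with edgeR 4.0.16 (quasi-likelihood, R 4.3.3), separately for each day (DKO against WT), for each genotype over its days (against day 0), and for the interaction. All adjusted p-values are Benjamini-Hochberg values over all genes tested. Genes with an adjusted p under 0.05 that differed 1.5-fold or more were called. Shares of counts were compared by exact two-sided permutation tests. DESeq2 1.42.0 and limma 3.58.1 were alternatives. The code was tested on simulated data.

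Nuclear copies were found by blastn against all GENCODE M21 transcripts, with at least 90% identity over at least 50 bases, and those of at least 99% were treated as copies. The members and gene lists were chosen with earlier results of these data known. For tests, up to 3 called protein genes with the smallest p whose groups did not overlap were named per comparison, or the gene with the smallest p where none was called, and at most 3 called genes per list. Other named values were chosen after they had been seen. The mapping of replicate numbers across groups was checked by the correlation of deviations from group means, and no pair of genotype groups met the criterion. DKO preadipocytes of days 0 and 3 (r 0.331 to 0.492) and of days 6 and 9 (0.239 to 0.327) did, and with the replicate number as a block all 13 protein genes were still called in each DKO preadipocyte time comparison.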

Additional observations from a re-analysis of the deposited data

How the results depend on the processing

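At day 6 of preadipocytes the count of protein genes called was 0, and 6 without a fold change threshold; at day 9 it was 0 and 2. At day 12 of MEFs it was 1, and 2 with DESeq2, 2 with the replicate block, 2 with nuclear copies added, 0 with 1 fit over all days and 8 without a fold change threshold. At day 8 of MEFs it was 0, and 1 without the libraries that stand apart, an alternative added after seeing the data, as were the copies. The interaction in preadipocytes gave 0 genes, and 6 with DESeq2. With copies added the difference in share was 2.33 points at day 6 and 1.88 points at day 9. Quantile normalization in limma-voom, named in the study's reporting summary, gives genes of the same rank the same value, and turned mt-Co1 to -0.11 at day 6 of preadipocytes and to -0.41 (adjusted p = 2.63e-07) at day 12 of MEFs, where it is among the highest genes. With its copy added, mt-Nd4l at day 4 of MEFs turned to 0.09. Leaving out each library in turn gave 0 to 3 genes called at day 6 of preadipocytes, 0 to 2 at day 12 of MEFs, 0 to 2 for the interaction in preadipocytes, 4 to 10 for day 3 against day 0 in WT preadipocytes and 10 to 12 for day 4 against day 0 in DKO MEFs. No percentage over all genes is given beside the counts of these fits. The difference in share was 1.55 to 2.13 points at day 6, 1.06 to 1.55 at day 9 and 0.757 to 1.06 at day 12 of MEFs, and changed sign at day 0 of MEFs (-0.0484 without DKO replicate 2). With the replicate block 0 genes passed the adjusted p at day 9 of preadipocytes, where mt-Nd5 had 0.0797 and mt-Nd4 0.0835, and since replicate numbers were not shown to pair the genotypes this is given only as an alternative. Of the single-gene genotype values 269 kept their direction and side of the threshold, 65 no longer passed, 1 newly passed and 3 reversed. Of the time values 737 kept both and 1 no longer passed.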
